A study of Mus musculus with 18 samples.

Results

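Ankrd1, Rcan1, Xirp1, Xirp2 and Fhl1 are 5 genes of the cardiac response to mechanical load and hypertrophy, and they were followed here in mouse left ventricles with and without the microprotein mORF4/NBDY. They were chosen by symbol, as genes of this response, from 10597 genes in the deposited tables, and all 5 were found there in all 9 hearts. The choice was made with earlier results of these data known. The wild-type group held 4 hearts and the mORF4/NBDY knockout group 5, all from untreated male C57BL/6 mice aged 20 weeks under normal housing. The labels number them 1 to 4 and 6 to 10. They do not say how the deletion was made or from how many litters the mice came, so p-values measure the spread between these hearts. Each ventricle gave 1 library of poly-A RNA, which reads the level of transcripts, and 1 library of ribosome footprints, the stretches of mRNA shielded by translating ribosomes. The ratio of footprints to RNA of the same heart is called translational efficiency here.

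In heart muscle, stretch is sensed along the titin filament, at the Z-disc and at the intercalated disc, where neighbouring cardiomyocytes are joined. ANKRD1 (also known as CARP) binds the spring-like N2A region of titin and also enters the nucleus, and FHL1 is a LIM-domain protein that binds titin's N2B spring and holds members of a MAP kinase cascade there. The Xin repeat proteins XIRP1 and XIRP2 bind actin and catenins at the intercalated disc. RCAN1 binds and inhibits calcineurin, the phosphatase that sends NFAT factors to the nucleus in hypertrophy, and its own gene is an NFAT target. Ankrd1, Rcan1 and Xirp2 transcripts are widely used as readouts of load or hypertrophic signalling.

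The upstream sequences below are shown because 3 of the 5 genes, Ankrd1, Rcan1 and Xirp2, had less RNA in the knockout, and because Rcan1 has a pair of listed start sites that the gene-level values cannot separate. They come from RefSeq on the GRCm38.p6 build, run from 250 to 1 bases before the transcription start on the gene's own strand, and carry searched motifs in capitals on whichever strand they were found. Capitals mark M-CAT (CATTCC, the element bound by TEAD factors, here read as its reverse complement) in Ankrd1. In the internal Rcan1 start they mark the cAMP response element TGACGTCA and the NFAT core GGAAA, and in Xirp2 the MEF2 element.
Ankrd1, chr19:36119845-36120094, minus strand: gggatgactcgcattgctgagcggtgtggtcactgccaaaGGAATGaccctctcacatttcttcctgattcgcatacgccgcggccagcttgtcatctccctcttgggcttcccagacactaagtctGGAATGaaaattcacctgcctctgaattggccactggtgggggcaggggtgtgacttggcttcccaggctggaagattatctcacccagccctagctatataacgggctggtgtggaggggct
Rcan1 upstream start, chr16:92466170-92466419, minus strand: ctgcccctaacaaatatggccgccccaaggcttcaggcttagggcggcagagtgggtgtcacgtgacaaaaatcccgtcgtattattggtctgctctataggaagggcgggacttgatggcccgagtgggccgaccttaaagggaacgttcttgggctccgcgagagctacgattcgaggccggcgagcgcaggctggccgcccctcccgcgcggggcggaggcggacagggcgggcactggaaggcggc
Rcan1 internal start, chr16:92400079-92400328, minus strand: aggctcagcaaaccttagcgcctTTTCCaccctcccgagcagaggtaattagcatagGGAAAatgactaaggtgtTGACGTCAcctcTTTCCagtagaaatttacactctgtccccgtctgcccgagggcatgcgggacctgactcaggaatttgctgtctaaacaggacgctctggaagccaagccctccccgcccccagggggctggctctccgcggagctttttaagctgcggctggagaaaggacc
Xirp2, chr2:67445752-67446001, plus strand: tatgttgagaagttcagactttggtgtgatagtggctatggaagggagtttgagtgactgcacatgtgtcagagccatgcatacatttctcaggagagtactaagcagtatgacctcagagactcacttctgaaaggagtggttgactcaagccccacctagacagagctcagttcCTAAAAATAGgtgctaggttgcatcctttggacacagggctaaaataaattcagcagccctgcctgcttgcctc
The Ankrd1 window held 2 M-CAT matches, whose first bases lie 210 and 123 bases before the start, and 12.6% of 32851 mouse windows of this length hold at least 1. The internal Rcan1 window held a cAMP response element at 175 bases, which 1.55% of windows hold, and GGAAA at 227, 193 and 163 bases, a short core found in 55.6% of windows. It also held 1 AP-1 match (TGANTCA, left in lower case, 6.75% of windows) at 110 bases. None of the searched motifs, which were these 4, MEF2 and the serum response element CArG, matched the upstream Rcan1 window. The Xirp2 window held a MEF2 match at 74 bases (2.92% of windows) and an AP-1 match at 107 bases. Of the 2 Fhl1 windows, 1 held a CArG match (1.47% of windows) at 102 bases and the other a GGAAA match at 92 bases. No window was available for Xirp1. Both strands were searched, matches of different motifs did not overlap, and a match is a description of letters only.

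Ventricular cardiomyocyte markers were present in full: all 8 listed (among them Myh6, Myl2 and Tnnt2) were detected, none at 0. Summed over the listed genes, wild-type RNA libraries ranged from 11.2 to 12.4 M reads (M for mega) and those of the knockout from 15.8 to 20.2 M. These depths are estimates, since the step that 1 read is worth was taken as the smallest value above 0 in each library. In every library 100% of values were whole multiples of that step within 0.01. As estimated, the depths of the genotypes did not overlap in RNA, and genotype and any batch among the RNA libraries cannot be told apart. Footprint depth ranged from 6.67 M (heart 2) to 36.7 M reads in wild type and from 22.9 to 40.8 M in the knockout. Nbdy, the targeted gene, had 107 to 355 normalized footprint reads in wild-type hearts and 10.9 to 19.0 in knockout hearts, with RNA at 100 to 116 and 61.8 to 90.0. All values below are reads divided by 1 size factor per library, in which the levels of different genes are not corrected for transcript length, so levels are compared between hearts and not between genes.

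In RNA, Ankrd1, Rcan1 and Xirp2 fell in the knockout, Xirp1 rose slightly, and Fhl1 did not pass the test. Of the 5 genes 4 were called, 3 lower and 1 higher, by limma with an adjusted p below 0.05 over all genes, against a background of 49.4% of all 10580 genes tested (25.1% lower and 24.3% higher). By size, the log2 change of Ankrd1 was larger in either direction than that of 98.3% of genes, of Rcan1 than 97.6% and of Xirp2 than 87.7%, while those of Xirp1 and Fhl1 exceeded 46.5% and 47.0%. As the 5 genes were chosen with earlier results known, these shares are a description. The hearts of the 2 genotypes did not overlap for Ankrd1, Xirp1 and Xirp2, as for 40.5% of genes. In footprints none of the 5 genes passed, where 2 of 9976 genes did, both lower (0.02%), and edgeR and DESeq2 on whole reads called none of the 5 either, with 2 and 6 genes in all. All 5 overlapped between genotypes there, and groups without overlap were rare (1.6% of genes, 0.832% with the knockout below and 0.772% above).

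**Figure D1:**
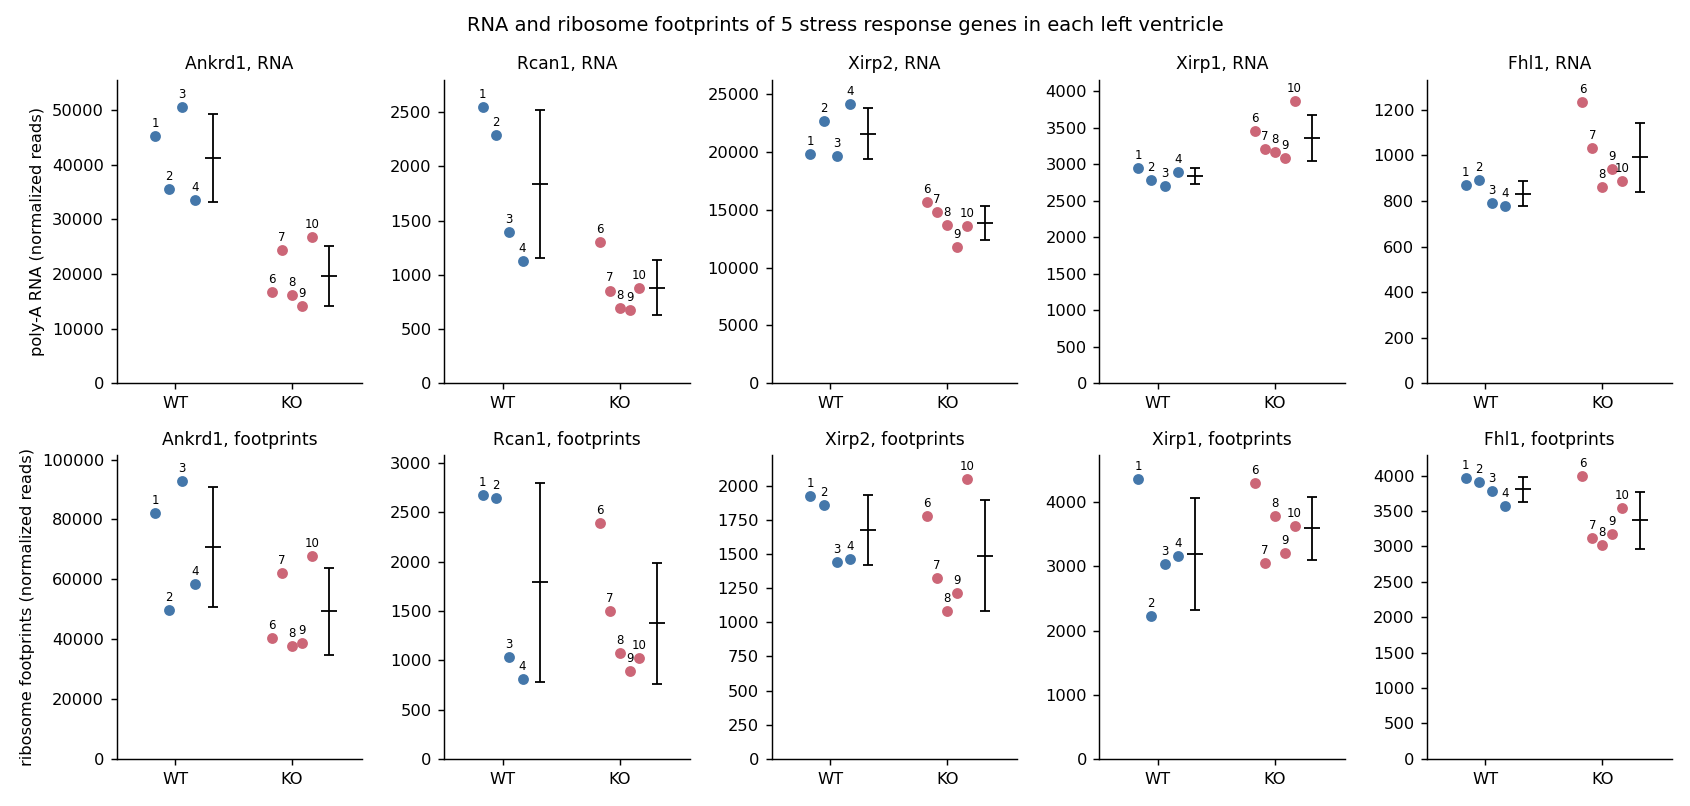
Normalized reads of the 5 genes in each heart, RNA in the upper row and footprints in the lower, for 4 wild-type (WT) and 5 knockout (KO) hearts; points carry the heart number, and bars give the mean and SD. Ankrd1 and Xirp2 RNA of all knockout hearts lies below all wild-type hearts and Xirp1 RNA above, while footprints overlap for all 5 genes.

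Ankrd1 (ENSMUSG00000024803, chromosome 19, 36111965 to 36119844, GRCm38) encodes the titin-bound ankyrin repeat protein. Its RNA was 45268, 35586, 50548 and 33477 normalized reads in wild-type hearts 1 to 4. In knockout hearts 6 to 10 it was 16765, 24353, 16141, 14092 and 26744. The highest knockout heart, heart 10, lay below the lowest wild-type heart, heart 4, and 20.6% of all genes had knockout hearts wholly below wild type in this way. The means were 41220 ± 8064 (SD, n = 4) and 19619 ± 5567 (SD, n = 5), and the fitted log2 difference was -1.10 ± 0.19 (SE; adjusted p = 0.000566, limma), so RNA fell by 53.2% on the fitted scale (95% interval of the log2 change, -1.51 to -0.68).

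Ankrd1 footprints were 82108, 49717, 92734 and 58421 normalized reads in wild type and 40316, 62075, 37586, 38581 and 67644 in the knockout. Knockout hearts 7 and 10 lay among the wild-type hearts, and hearts 6, 8 and 9 below them. The fitted log2 difference was -0.53 ± 0.20 (SE), with a 95% interval of -0.96 to -0.09, and did not pass the test over all genes (limma adjusted p = 0.851). Its unadjusted p of 0.0200 was the only 1 of the 5 genes below 0.05, a level reached by 5.06% of all genes.

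Within a genotype the 2 assays ordered the hearts much alike for Ankrd1. RNA ran from heart 3 through 1 and 2 to 4 in wild type and footprints from 3 through 1 and 4 to 2. In the knockout RNA ran from heart 10 through 7, 6 and 8 to 9, and footprints differed only in the order of 9 and 8. Footprints over RNA varied less between hearts than RNA did, with a log2 SD of 0.18 against 0.28 in wild type and 0.09 against 0.40 in the knockout.

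Fhl1 (ENSMUSG00000023092, chromosome X, 56731209 to 56793346) encodes the other titin-spring protein of the set, and a small nuclear RNA gene lies within it. Its RNA was 869, 892, 791 and 778 normalized reads in wild type and 1234, 1034, 864, 940 and 888 in the knockout. Knockout heart 6 was highest, hearts 7 and 9 also lay above all wild-type hearts, and hearts 8 and 10 lay within their range. In log2 terms knockout minus wild type was 0.24 ± 0.10 (SE; adjusted p = 0.0597, limma), and the call depended on the setting: it passed at 0.32 with quantile normalization (limma adjusted p = 0.0235) and at 0.24 in the authors' deposited table (adjusted p = 0.0458). Without knockout heart 8 or 10 it passed as well, at 0.29 (limma adjusted p = 0.0345) and 0.28 (0.0445).

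Fhl1 footprints were 3966, 3910, 3783 and 3564 normalized reads in wild type and 3990, 3117, 3019, 3170 and 3541 in the knockout. The 4 knockout hearts other than heart 6 lay below all wild-type hearts. On the log2 scale the difference was -0.18 ± 0.11 (SE; 95% interval -0.42 to 0.06; adjusted p = 0.851, limma). Wild-type hearts were close to each other, with a log2 SD of 0.07, and 2.34% of genes had a smaller one.

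Xirp2 and Xirp1 encode the paired Xin repeat proteins of the intercalated disc, and their RNA moved in opposite directions. Xirp2 (ENSMUSG00000027022, chromosome 2, 67446000 to 67526620) is a known MEF2 target. Its RNA was 19843, 22664, 19642 and 24128 normalized reads in wild type and 15660, 14781, 13642, 11761 and 13593 in the knockout, with no overlap and the knockout lower. The fitted log2 difference was -0.64 ± 0.09 (SE; adjusted p = 0.000118, limma), so RNA fell by 35.7%. Its footprints were 1926, 1860, 1437 and 1465 in wild type and 1776, 1322, 1079, 1215 and 2047 in the knockout. Heart 10, a knockout, was the highest of all 9, and the log2 fold change was -0.20 ± 0.18 (SE; 95% interval -0.58 to 0.18; adjusted p = 0.857, limma). A long noncoding RNA gene, Gm13601, overlaps Xirp2, and the RNA kit does not mark strand, so reads of the 2 cannot be told apart.

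Xirp1 (ENSMUSG00000079243, chromosome 9, 120013755 to 120023598) had RNA of 2947, 2792, 2703 and 2899 normalized reads in wild type and 3450, 3214, 3170, 3083 and 3866 in the knockout. All knockout hearts lay above all wild-type hearts, as for 19.8% of genes, although the difference was small: 0.24 ± 0.07 on the log2 scale (SE; adjusted p = 0.0107, limma), or 1.18 times the wild-type level. The wild-type hearts varied little, with a log2 SD of 0.06, and 9.57% of genes had a smaller one. With the spread estimated over all 18 libraries the Xirp1 call was lost (limma adjusted p = 0.240). Its footprints were 4354, 2230, 3034 and 3158 in wild type and 4294, 3053, 3778, 3209 and 3632 in the knockout, with both extremes in wild type (hearts 1 and 2). In log2 terms knockout minus wild type was 0.20 ± 0.16 (SE; 95% interval -0.14 to 0.54; adjusted p = 0.854, limma).

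The ratio of Xirp2 to Xirp1 reads within a library does not depend on the size factors, and it was computed after the values of both genes were seen, so no test is given. In RNA it was 6.73, 8.12, 7.27 and 8.32 in wild type and 4.54, 4.60, 4.30, 3.82 and 3.52 in the knockout, with means of 7.61 ± 0.742 (SD, n = 4) and 4.15 ± 0.472 (SD, n = 5). The lowest wild-type heart stood well above the highest knockout heart. In footprints the ratio was 0.442, 0.834, 0.474 and 0.464 in wild type and 0.414, 0.433, 0.286, 0.379 and 0.563 in the knockout. The groups overlapped there through knockout heart 10 alone.

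Rcan1 (ENSMUSG00000022951, chromosome 16, 92391951 to 92466169) encodes the calcineurin inhibitor and was the most variable of the 5 genes between wild-type hearts. Its RNA was 2545, 2289, 1394 and 1127 normalized reads in wild type and 1304, 855, 697, 678 and 878 in the knockout. Wild-type hearts 1 and 2 were high and hearts 3 and 4 lower, and knockout heart 6 lay above wild-type heart 4, so the groups overlapped. The means were 1839 ± 684 (SD, n = 4) and 882 ± 252 (SD, n = 5), and the fitted log2 difference was -1.02 ± 0.25 (SE; adjusted p = 0.00475, limma), so RNA fell by 50.7%. The call was lost when the spread was estimated over all 18 libraries (limma adjusted p = 0.0542). Long noncoding RNA genes, Gm41498 and Gm46555, overlap Rcan1, and their reads cannot be told apart from it.

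Rcan1 footprints were 2676, 2647, 1037 and 805 normalized reads in wild type and 2394, 1495, 1074, 888 and 1022 in the knockout. Hearts 1, 2 and 6 stood high. In RNA heart 6 was the highest knockout heart but lay below wild-type heart 3. In footprints the wild-type hearts spanned a 3.32-fold range. On the log2 scale the difference was -0.28 ± 0.34 (SE), with a 95% interval of -0.99 to 0.43 (limma adjusted p = 0.890), and leaving out single hearts moved it between -0.60 and -0.02. The wild-type log2 SD was larger than that of 98.0% of genes in RNA and 96.0% in footprints. Wild-type hearts fell in the same order, 1, 2, 3, 4, in both assays. The values sum over the upstream and internal starts shown above, so which of them moved is not known.

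**Figure D2:**
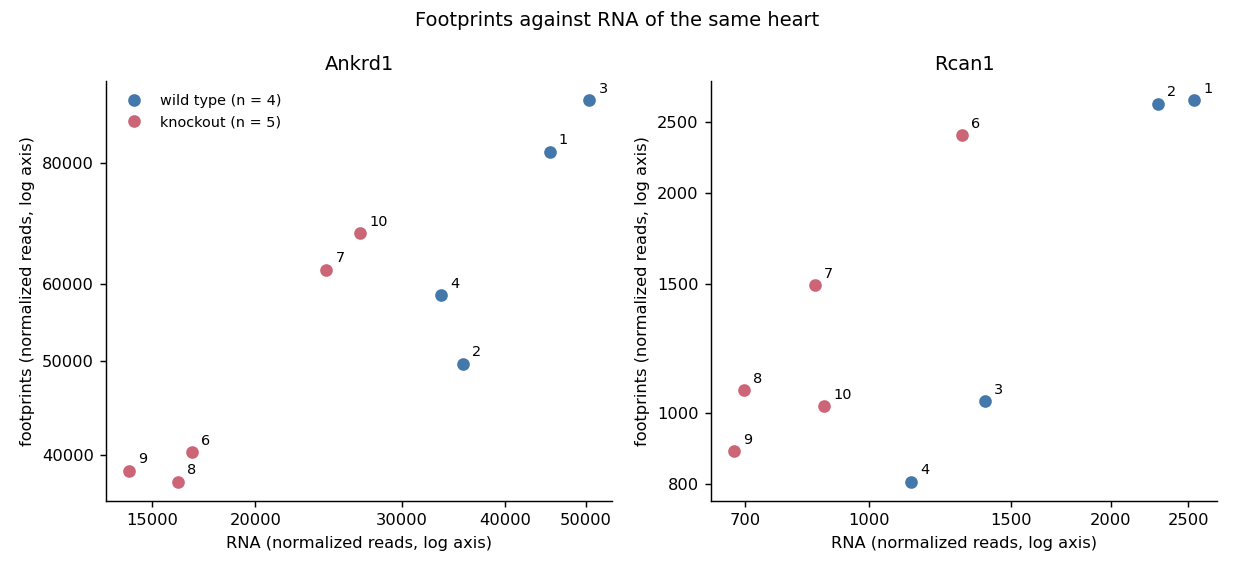
Footprints against RNA of the same heart for Ankrd1 and Rcan1, in normalized reads on log axes, 1 point per heart with its number. Within each genotype hearts with more RNA tended to have more footprints, and the knockout hearts lie to the left of wild-type hearts with like footprints, as in hearts 10 and 4 for Ankrd1 (67644 and 58421 footprint reads at 26744 and 33477 RNA reads).

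Translational efficiency of Ankrd1 and Rcan1 was higher in the knockout and that of Fhl1 lower when the 2 libraries of a heart were paired, but none of the 5 passed without the pairing. Both fits were planned. The one set as the main test, which has no term for the heart, called 0 of 5, against 14.4% of 9974 genes tested with limma (7.83% higher, 6.55% lower), and only Fhl1 had an unadjusted p below 0.05 (27.8% of genes did). The authors' deposited table called 1 of the 5, Fhl1. With the heart as a replicate block 3 of 5 were called, against 18.6% of genes (9.92% higher, 8.65% lower). The RNA values enter both the RNA and the efficiency comparison, so an efficiency difference opposite to that in RNA is not independent of it, and a batch of RNA libraries would enter both.

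Groups did not overlap for 3 of the 5, as for 18.3% of genes. Ankrd1 efficiency was 1.81, 1.40, 1.83 and 1.75 footprint reads per RNA read in wild type and 2.40, 2.55, 2.33, 2.74 and 2.53 in the knockout. All knockout hearts lay above all wild-type hearts, as for 9.55% of genes. The fitted log2 difference was 0.57 ± 0.32 (SE; adjusted p = 0.261, limma) without pairing, and 0.57 ± 0.10 (SE; 95% interval 0.36 to 0.78; adjusted p = 0.00147, limma) with the replicate block.

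Rcan1 efficiency was 1.05, 1.16, 0.744 and 0.715 in wild type and 1.84, 1.75, 1.54, 1.31 and 1.16 in the knockout. The lowest knockout heart, heart 10, and the highest wild-type heart, heart 2, were nearly equal at 1.164 and 1.157. In log2 terms knockout minus wild type was 0.74 ± 0.50 (SE; adjusted p = 0.367, limma) without pairing and 0.74 ± 0.17 (SE; 95% interval 0.37 to 1.11; adjusted p = 0.00917, limma) with the replicate block.

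Fhl1 efficiency was 4.57, 4.38, 4.78 and 4.58 in wild type and 3.23, 3.02, 3.50, 3.37 and 3.99 in the knockout. The knockout was lower without overlap, as for 8.73% of genes, and heart 10 came closest to wild type. On the log2 scale the difference was -0.43 ± 0.15 (SE; adjusted p = 0.0574, limma) without pairing and -0.43 ± 0.11 (SE; adjusted p = 0.0128, limma) with the replicate block. Fhl1 was the member whose footprints and RNA had fold changes of opposite sign, -0.18 and 0.24, though neither passed alone.

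The Xin repeat genes were not called in either fit. Xirp2 efficiency was 0.0971, 0.0821, 0.0732 and 0.0607 in wild type and 0.113, 0.0894, 0.0791, 0.103 and 0.151 in the knockout, with overlap. The log2 fold change of Xirp2 was 0.44 ± 0.22 (SE; adjusted p = 0.196, limma), and 0.44 ± 0.17 (SE; adjusted p = 0.0901, limma) with the replicate block. Xirp1 efficiency was 1.48, 0.799, 1.12 and 1.09 in wild type and 1.24, 0.950, 1.19, 1.04 and 0.940 in the knockout, a log2 fold change of -0.04 ± 0.19 (SE; adjusted p = 0.922, limma). Its sign turned when heart 1, 7 or 10 was left out (0.10, 0.0021 and 0.0060).

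**Figure D3:**
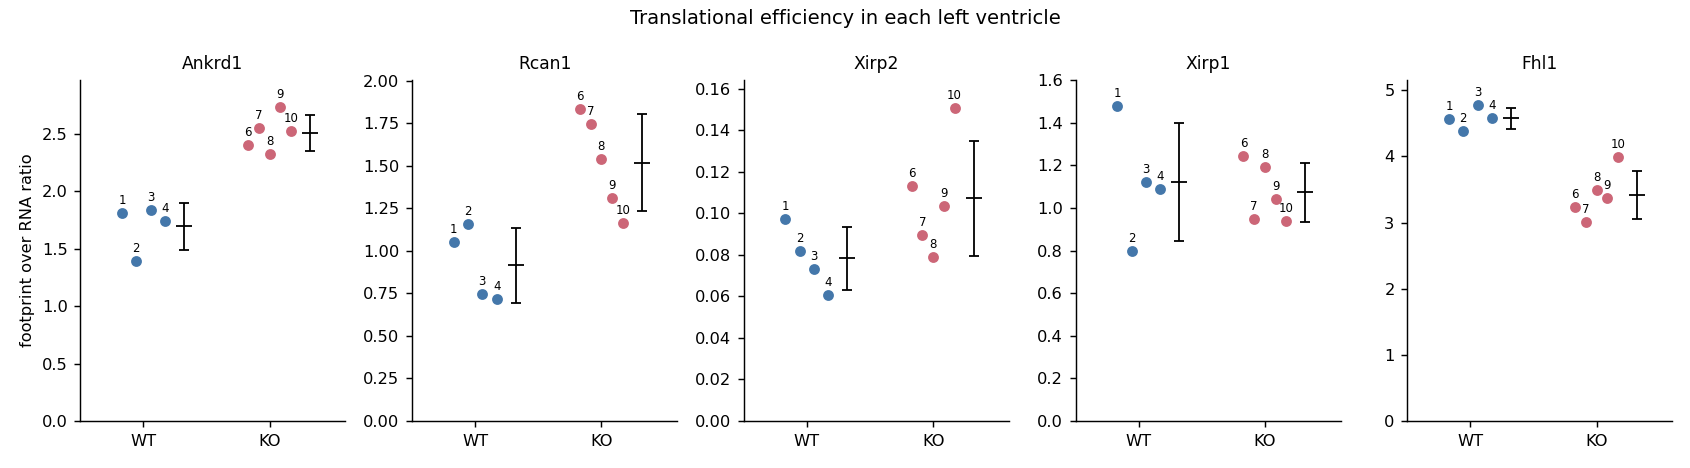
Translational efficiency (footprint reads over RNA reads, both normalized) of the 5 genes in each heart; bars give the mean and SD of 4 wild-type and 5 knockout hearts. Knockout hearts lie above wild type for Ankrd1 and Rcan1 and below for Fhl1, and overlap for Xirp2 and Xirp1.

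**Figure D4:**
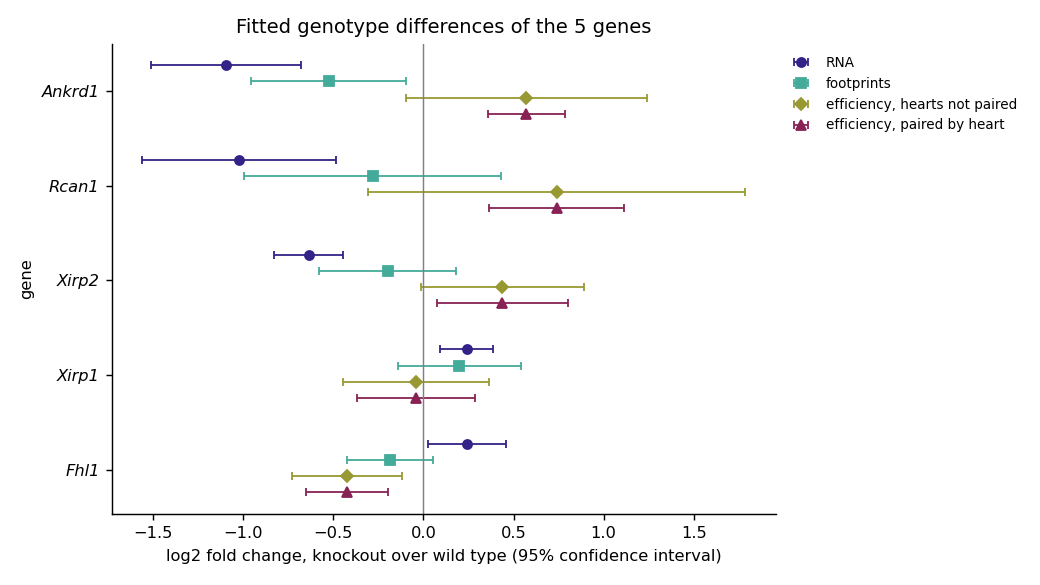
Fitted log2 fold changes, knockout over wild type, with 95% confidence intervals, for RNA, footprints, and efficiency without and with pairing by heart. Pairing leaves the efficiency estimates in place and narrows the intervals, most for Ankrd1 (SE 0.32 and 0.10) and Rcan1 (SE 0.50 and 0.17).

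The 5 genes also lay far apart on the efficiency scale itself. Which part of a transcript each assay covers was not examined, and Xirp2 RNA may include reads of Gm13601, so these ranks between genes are a description. Fhl1 stood above 92.9% of genes in wild type, whereas Xirp2, at a mean of 0.0783 ± 0.0153 (SD, n = 4), stood above only 2.52%, against a median of 1.45 over all genes. Its knockout mean was 0.107 ± 0.0276 (SD, n = 5), above 3.52% of genes. Xirp1 (39.3%), Rcan1 (32.1%) and Ankrd1 (57.6%) lay in the middle of the range in wild type. Xirp2 had 539 to 3226 footprint reads in each library, and Rcan1 666 to 4414.

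Of 4 close relatives tested, 1 passed in RNA (25.0%, background 49.4%) and none in footprints (background 0.02%). The list held 8, and Ankrd2, Rcan3, Fhl4 and Fhl5 were not found by symbol among the 10597 genes. Ankrd23, which like ANKRD1 binds titin, had RNA at -0.31 ± 0.13 on the log2 scale (SE; adjusted p = 0.0609, limma) and footprints at -0.46 ± 0.15 (limma adjusted p = 0.851). Rcan2, the second calcineurin inhibitor of the family, fell in RNA by 0.19 (limma adjusted p = 0.0390), next to -1.02 for Rcan1, with footprints at 0.06. The Rcan2 call was lost without any 1 of hearts 1, 2, 3, 7, 8, 9 and 10 (limma adjusted p from 0.0563 to 0.107). It was also lost with quantile normalization and in 1 fit over all 18 libraries. Fhl2, the main FHL protein of heart, was at 0.11 in RNA (limma adjusted p = 0.125) and -0.28 in footprints, and its efficiency fell by 0.39 (limma adjusted p = 0.0383), next to -0.43 for Fhl1. The Fhl2 call was lost without any 1 of hearts 1, 2, 3, 4, 6, 8 and 9 (adjusted p from 0.0516 to 0.107). Fhl3 was at 0.19 in RNA and passed no test.

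Genes listed for calcineurin, on which RCAN1 acts, and for NFAT were lower in RNA more often than higher. Of 18 measured, 10 fell, 1 rose and 7 did not pass (61.1% called, background 49.4%), with a median log2 fold change of -0.28 against 0.01 over all genes. Myoz2, the Z-disc tether of calcineurin, fell by 0.98 (limma adjusted p = 3.12e-07), the MEF2 factor Mef2d by 0.87 (3.74e-07) and the calcineurin regulatory subunit Ppp3r1 by 0.81 (1.42e-05). The catalytic subunits were at 0.01 for Ppp3ca and 0.14 for Ppp3cb, neither past the test, while Ppp3cc fell by 0.42. Nfatc1 and Nfatc3 fell by 0.46 and 0.20, and Dyrk1a and Gsk3b, kinases that return such NFAT factors to the cytoplasm, by 0.68 and 0.37. Nfat5, listed as a family member although calcineurin does not control it, fell by 0.67. Without heart 2, Nfatc3 lost its call (limma adjusted p = 0.0721). Cib1 was the member that rose, by 0.49 (limma adjusted p = 0.0497), a call lost without any heart but 1 (0.0563 to 0.129). The calls of Nfatc3 and Cib1 were also lost with quantile normalization and in 1 fit over all 18 libraries. In footprints none of the 18 passed, where 0.02% of all genes did, and the median was 0.03. In efficiency 8 were higher and 1 lower (of all genes 7.83% were higher and 6.55% lower), with Mef2d at 1.05, Ppp3r1 at 0.82 and Cib1 at -1.04 (median 0.46, against -0.02 over all genes).

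Of 16 measured genes for YAP, TEAD, SRF and MRTF, 7 fell in RNA, none rose and 9 did not pass (43.8% called, below the background of 49.4%; of all genes 25.1% were lower; median -0.19, against 0.01 over all genes). Srf, the serum response factor, fell by 0.86 (limma adjusted p = 4e-05), its cofactors Mrtfb by 0.62 (1.96e-05) and Myocd by 0.54 (0.00247). Yap1 and Tead1 were at 0.13 and 0.03, neither past the test. No gene passed in footprints (background 0.02%, median 0.13). In efficiency 3 were called, all higher (18.8%, against 14.4% of all genes). These were Srf, Myocd and Mrtfb, at 0.98, 0.84 and 0.68.

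**Figure D5:**
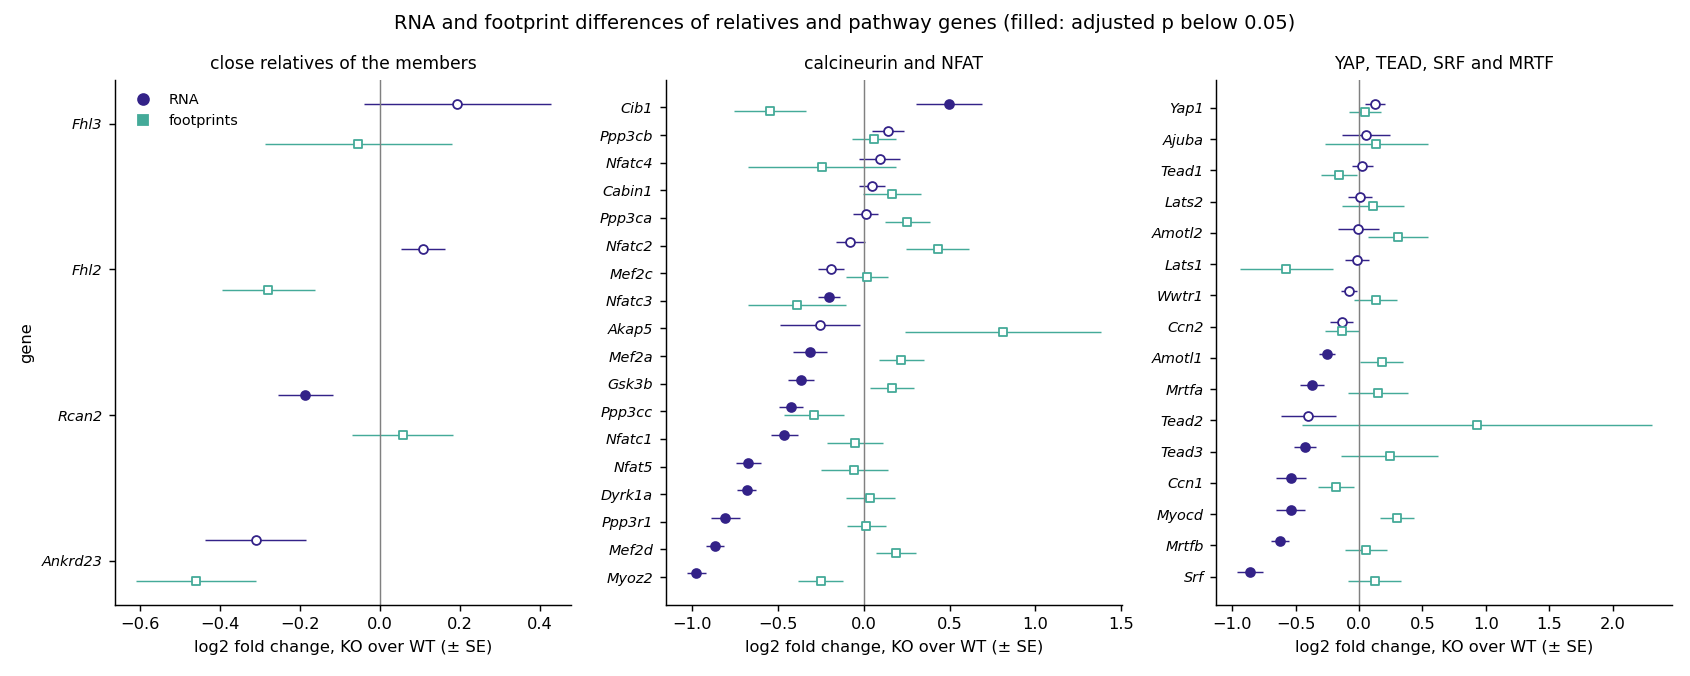
Log2 fold changes, knockout over wild type, with SE, in RNA and footprints for relatives of the 5 genes and for 2 pathways; filled symbols passed limma at an adjusted p below 0.05. In RNA 10 of 18 calcineurin and NFAT genes and 7 of 16 YAP, TEAD, SRF and MRTF genes passed as lower, where 25.1% of all genes did. Cib1 passed as higher. No footprint symbol is filled, and 0.02% of all genes passed there.

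Structural neighbours of the 5 proteins were split. Of 22 titin spring and Z-disc genes 4 rose and 8 fell in RNA (54.5% called, background 49.4%; median -0.03), with Myot at -1.24 (limma adjusted p = 7.13e-05), Nexn at -0.94 (2.69e-07) and the titin cap Tcap at 0.70 (0.0453). Tcap lost its call without any 1 of hearts 1, 2, 7, 8, 9 and 10 (limma adjusted p from 0.0784 to 0.142). Robust empirical Bayes and 1 fit over all 18 libraries lost it too. Of 16 intercalated disc genes 6 rose and 5 fell (68.8% called, background 49.4%; median 0.02), with the actin regulator Enah at -1.15 (limma adjusted p = 4.52e-05), Tjp1 at -0.50 (5.74e-06) and talin, Tln1, at 0.43 (2.49e-05). None of these 38 genes passed in footprints (background 0.02%), with medians of 0.15 and 0.13. Efficiency was higher for 4 of the 22 (Nexn at 1.11, Bag3 at 0.94 and Synpo2l at 0.66) and for 4 of the 16 (Enah at 1.22, Tjp1 at 0.59 and Dsg2 at 0.54), or 18.2% and 25.0% called, against 14.4% of all genes. Among these, the call was lost for Bag3 without heart 2 (limma adjusted p = 0.0676), for Synpo2l without heart 1, 4, 7, 8 or 9 (0.0564 to 0.0741) and for Dsg2 without any heart but 7 (0.0524 to 0.142). That of Dsg2 was also lost with other size factors (TMM) and with quantile normalization. Among 12 genes of the MAP kinase cascade that FHL1 holds at titin, 4 rose and 5 fell in RNA (75.0% called, background 49.4%; median 0.02). Map2k2 rose by 0.93 (limma adjusted p = 1.29e-06), and Mapk8 and the phosphatase Dusp1 fell by 0.63 (2.86e-05) and 0.68 (0.00899). The Dusp1 call was lost in 1 fit over all 18 libraries. Efficiency of Map2k2 was lower by 0.99 and that of Braf and Map2k5 higher by 0.94 and 0.55. No gene of the cascade passed in footprints (background 0.02%). The Braf call was lost without heart 2, 4 or 10 (limma adjusted p from 0.0599 to 0.0794) and the Map2k5 call without heart 2, 3, 4, 7 or 10 (0.0579 to 0.0753).

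In the fetal and hypertrophy list, which holds Ankrd1, Rcan1 and Xirp2 among its 10 genes, 7 fell in RNA, none rose and 3 did not pass (70.0% called, background 49.4%, with 25.1% of all genes lower; median -0.71), and those 3 genes are among the 7. Myl4, the atrial light chain, fell by 1.56, the most of the list (limma adjusted p = 6.07e-06). It overlaps Cdc27, whose reads cannot be told apart from it without strand. Acta1 and Nppa were at -0.89 and -0.79, calls lost without heart 1 or 3 for Acta1 (limma adjusted p = 0.0762 at most) and without any 1 of hearts 1, 2, 3, 8, 9 and 10 for Nppa (0.0651 to 0.141). Both calls were also lost with robust empirical Bayes, with 1 fit over all 18 libraries and in the authors' deposited table, and that of Nppa with quantile normalization. The one gene of any of these lists to pass in footprints was Nppb, brain natriuretic peptide, at -0.97 ± 0.15 (SE; adjusted p = 0.0289, limma), whose RNA was at 0.18 and did not pass. The Nppb footprint call was lost without any 1 of hearts 1, 2, 3, 6, 7, 8 and 9 (limma adjusted p from 0.10 to 0.194), and with no minimum mean. In efficiency 1 of the 10 was higher and 1 lower (20.0% called, background 14.4%). These were Myl4 at 1.80 (limma adjusted p = 0.0154) and Nppb at -1.15 (0.0053). The Myl4 efficiency call was lost without heart 3 or 4 (limma adjusted p from 0.0666 to 0.0692), and that of Nppb without no single heart. Immediate early genes, which respond within minutes to stimulation, were 3 higher, 3 lower and 8 not passed in RNA (42.9% called, background 49.4%), with Ier3 and Btg2 at 0.96 (limma adjusted p = 0.0185) and 0.77 (0.00275) and Jun at -0.78 (0.00679). Ier3 lost its call without heart 1 (limma adjusted p = 0.0580). Their footprints did not pass for any of 14 (background 0.02%), with a median of 0.35 against -0.0027 over all genes, and 1 of 14 below 0. Efficiency passed for Jun alone (7.14% called, background 14.4%), at 1.24, and not without heart 2 (limma adjusted p = 0.0579).

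The summed RNA of the skeletal muscle and of the atrial marker list was lower in the knockout, but each sum rested mostly on few genes. These were Myh1 and Myh4 (wild-type means of 30450.5 and 29045.9 normalized reads) and, in the atrial list, Myl4 (11095.8). Of 11 skeletal muscle markers 6 were used, none at 0. Myh1 and Myh4, myosins that share sequence, fell by 1.07 and 1.02, and Atp2a1 rose by 0.80. Atp2a1 overlaps Rabep2, and without strand their reads cannot be told apart. Myh2, Mylpf and Actn3 did not pass (-0.30, -0.52 and 0.15). Tnnt3, Tnni2, Pvalb, Myf6 and Myod1, and the atrial marker Sln, were not found by symbol among the 10597 genes. Summed RNA of the 6 was 52501 to 94654 normalized reads in wild type and 29840 to 45663 in the knockout, without overlap. Their summed footprints were 1815 to 3275 and 1618 to 3695, with overlap. Summed RNA of 3 atrial markers (Myl7, Myl4 and Nppa) was 15049 to 16771 in wild type and 5257 to 8852 in the knockout, and summed footprints were 10923 to 40326 and 7153 to 22525. Myl4 and Nppa fell, while Myl7 RNA was at 1.53 on the log2 scale and did not pass (limma adjusted p = 0.207). Of the ventricular list the summed RNA was 1761630 to 2070060 and 1566820 to 1794930, with overlap. Summed RNA of the smooth muscle, fibroblast, endothelial and macrophage lists overlapped between genotypes as well. Skeletal muscle also expresses the 5 genes, and the part of these markers in the differences was not tested. In bulk tissue, fewer cells of a type and less RNA per cell cannot be told apart.

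The transcripts whose RNA followed each gene most closely were found among 9132 genes with a mean of at least 100, over the 9 RNA libraries. As these points share the genotype difference and the depth gap, the correlations are a description. Ankrd1 was followed by Pfkfb2, Nomo1 and Scn10a (Pearson's r of 0.986, 0.982 and 0.981) and Rcan1 by Rasa3, Fxyd5 and Arpc3 (0.969, 0.968 and 0.968). Xirp1 was followed by Hspa12b, Rbm18 and Lrrc41 (0.961, 0.959 and 0.942), Xirp2 by Itgb1 and Ptpra (0.989 and 0.979) and Fhl1 by Fam69b, Gm4788 and its relative Fhl2 (0.953, 0.952 and 0.937). In the 9 footprint libraries these pairs ranged from -0.185 for Ankrd1 with Nomo1 to 0.847 for Rcan1 with Fxyd5. Between the 5 genes themselves, Ankrd1, Rcan1 and Xirp2 RNA had r of 0.729 to 0.785 over the 9 libraries. In footprints r was 0.03 for Ankrd1 with Rcan1, 0.420 for Ankrd1 with Xirp2 and 0.566 for Rcan1 with Xirp2.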

How the data were processed

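Poly-A RNA (TruSeq kit, which does not mark strand) and ribosome footprints (NEXTflex small RNA kit) of 9 hearts gave 18 libraries, per the labels' protocols. The authors deposited 3 tables of 10597 genes, of which 10560 matched a symbol. The build was GRCm38 (mm10), and the tools named were DESeq2, HTSeq and STAR 2.7.1a, per the submitters' processing notes. Deposited RNA and footprint values are a signal, gene counts divided by 1 size factor per library, and the third table holds their ratio, which differed from the quotient by at most 0.0497%. The deposited log2 fold changes and p-values were used as 1 alternative, with the efficiency sign turned to knockout over wild type. Values of both assays came out as whole multiples of the step within 0.01. As alternatives, edgeR 4.0.16 and DESeq2 1.42.0 were run on whole footprint reads only. The main tests used limma 3.58.1 (R 4.3.3) on log2(value + 1) with its mean-variance trend, a minimum mean of 10 and Benjamini-Hochberg adjustment over all genes, with 0.05 as threshold. Fold changes are on that scale. Efficiency was the genotype by assay interaction over 18 libraries, or, with the heart as a replicate block, the log2 ratio per heart. RNA and footprints of 1 number come from the same ventricle per the labels. Their deviations from the genotype mean correlated at 0.277 to 0.662 (median 0.442) over 3233 genes, against a median of -0.188 for different hearts of a genotype. Such deviations cancel out within a genotype, which pulls the values for different hearts negative by construction, so -0.188 is no neutral baseline. The scripts were tested on simulated data, in which the 2 libraries of a heart were drawn independently. The paired fit was therefore not tested with deviations shared by a heart. Members and gene lists were chosen with earlier results of these data known. Genes named are the 5 members, their relatives, up to 3 genes per list with the largest change past the threshold in RNA and in efficiency, any past it in footprints, and the 3 most correlated with each member, of which 1 is not reported here. Others (the calcineurin subunits and NFAT regulators beyond that rule, Yap1, Tead1, Acta1, Nppa) were named after their values were seen. Transcript lengths and protein sequences were not used here.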

Additional observations from a re-analysis of the deposited data

How the results depend on the processing

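Over 18 alternatives in RNA, of 90 values of the 5 genes 84 kept their direction and side of the threshold, 4 were newly past it (all Fhl1) and 2 lost it. Those were in 1 fit over all 18 libraries, where 2625 genes and 2 of the 5 were called, and Rcan1 (-1.02) and Xirp1 (0.24) missed the threshold. Fhl1 RNA was called at 0.32 with quantile normalization and at 0.24 in the authors' deposited table, and ranged from 0.16 to 0.29 when single hearts were left out. The same omissions kept Ankrd1, Rcan1, Xirp1 and Xirp2 RNA past the threshold in 9 of 9 fits. All 100 footprint values kept their side and direction. Footprint calls over all genes were 7 with the common fit, 6 with DESeq2 and in the authors' deposited table, 1 with no minimum mean, and 0 to 3 with single hearts left out. In efficiency, 1 of the 5 was called with quantile normalization (Fhl1, -0.51) and in the authors' deposited table (Fhl1, -0.46). The replicate block called 3: Ankrd1 (0.57), Rcan1 (0.74) and Fhl1 (-0.43), and changed no other call among the 5. With single hearts left out, an alternative chosen after seeing the data for the paired fit, 0 to 1 were called unpaired and 3 to 4 paired. Ankrd1 then ranged from 0.48 to 0.61, Rcan1 from 0.63 to 0.86, Fhl1 from -0.48 to -0.38 and Xirp2 from 0.31 to 0.55, the last called only in the paired fit without heart 8 (0.54). Xirp1 ranged from -0.19 to 0.10 and turned direction without heart 1, 7 or 10 (0.10, 0.0021 and 0.0060). The causes were not tested. Depth limits footprints most in heart 2, at 6.67 M reads. By the gap to its neighbour, no member's heart was marked as a single outlier among 30 groups. With 4 or 5 hearts per group this rule marks only extreme gaps, so it does not show that no heart differed.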

Other observations

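Outside the comparisons, Rcan1 and Fxyd5, a regulator of the sodium pump, followed each other over the 9 hearts in both assays, with Pearson's r of 0.968 in RNA and 0.847 in footprints. This pair was singled out after its values were seen. Xirp2 and Fhl1 had r of 0.813 in footprints and -0.439 in RNA over the same hearts. The points share libraries and the genotype difference, and these values are a description.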
